A study of Mus musculus with 24 samples.

Results

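Gr1+ myeloid cells were compared with committed L-S-K+ progenitors of mouse bone marrow. The comparison used 12 of the 24 arrays of the series, 6 of Gr1+ cells and 6 of progenitors, chosen by the cell type in their labels, with strain as a factor. The groups were Gr1+ cells of DBA2 (D2) mice, Gr1+ cells of C57Bl/6 (B6) mice, progenitors of D2 mice and progenitors of B6 mice, with 3 arrays in each. All were taken from primary bone marrow, and no genotype other than the strain and no treatment, age or sex is given for them. The progenitors are labelled as committed cells that lack lineage markers and Sca-1 and carry c-Kit. The remaining 12 arrays held LSK multilineage cells and Ter119+ erythroid cells. No label tells whether the arrays of a group are separate animals. Errors and p-values therefore measure the spread between arrays, which may be technical.

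Committed progenitors of the bone marrow divide quickly and give rise to granulocytes, monocytes, red cells and platelets. On the path to the neutrophil a cell fills its granules in order: primary granules with myeloperoxidase and serine proteases at the promyelocyte stage, secondary granules with lactoferrin and cathelicidin at the myelocyte and metamyelocyte stages, and tertiary granules with gelatinase after that, while it stops dividing and lobes its nucleus. Antibodies to Gr-1 bind Ly6G, a neutrophil surface protein, and less strongly Ly6C, which monocytes also carry. Each sorted population may hold several stages, and in such bulk RNA fewer cells of a type and less RNA per cell cannot be told apart.

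A level is a log2 normalized intensity and a difference is Gr1+ minus progenitors on that log2 scale, averaged over the strains, with ± its SE. Genes were called where limma's adjusted p was under 0.05. Of 45281 probes, 18.7% to 24.5% were detected (detection p under 0.01) on the Gr1+ arrays, against 17.5% to 26.6% on the progenitor arrays, and 7925 genes entered the test. Arrays of a group correlated with r of at least 0.96 across the 7925 tested genes, which are not independent replicates. The lowest value was among D2 progenitors. All 12 neutrophil markers tested were higher in Gr1+ cells, by a median of 5.20; Ly6g itself has no probe in the annotation used. Their mean level ran from 12.64 to 12.79 on the Gr1+ arrays and from 7.07 to 9.56 on the progenitor arrays, where D2 replicate 3 was the highest. Of the 9 progenitor markers tested, 5 of them also primary granule genes, 8 were lower in Gr1+ cells and none was higher. Kit, the receptor that defines the progenitor sort, differed by -3.13 ± 0.16 (other probe -0.49), and Gata2 by -3.70 ± 0.20.

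In all, 5444 of 7925 genes were called (68.7%), 2331 higher in Gr1+ cells (29.4%) and 3113 lower (39.3%). Calls of at least 2-fold made up 16.9% of the tested genes on the higher side and 19.4% on the lower side. The median difference of all genes was -0.13, and it was -0.29 when arrays were scaled to their medians in place of quantile normalization. With that scaling 3269 genes were called, 1220 higher and 2049 lower. Because most genes differed, the counts of each gene list below are to be read against these shares. A gene could enter the test through detection in 1 of 8 groups alone, and one that entered only through Gr1+ cells or only through progenitors was bound to differ. For the gene lists, though not for the markers of other cells, counts are therefore also given over the members detected on all 12 arrays. With the probes chosen by that stricter filter, 29.9% of the 4257 genes tested were called higher and 43.5% lower.

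Among genes detected on all 12 arrays, the 12 largest differences on the higher side included receptors, granule and secreted proteins and enzymes. Fpr2, a receptor for formylated bacterial peptides, had levels of 13.63, 13.86 and 14.06 (lowest, median and highest) on the Gr1+ arrays, against 5.73, 6.67 and 9.73 on the progenitor arrays. It was 103-fold higher in Gr1+ cells (6.69 ± 0.29, adjusted p = 2.32e-15 in limma). The Gr1+ arrays lay within a narrow band, and the spread sat on the progenitor side, where the 3 B6 arrays were lower than the 3 D2 arrays. Retnlg, a resistin-like secreted protein, was 101-fold higher (6.66 ± 0.42) and Mmp9, the gelatinase of tertiary granules, 86.4-fold higher (6.43 ± 0.31). The galactoside-binding lectin Lgals3 differed by 6.25 ± 0.31, the phagosomal metal transporter Slc11a1 by 6.18 ± 0.24, the leucine-rich glycoprotein Lrg1 by 6.03 ± 0.30, the aldehyde dehydrogenase Aldh3b1 by 5.81 ± 0.30, the lysozyme Lyz2 by 5.71 ± 0.27, the matrix protein Tgfbi by 5.33 ± 0.28 and the surface glycoprotein Cd52 by 5.09 ± 0.25. Other probes of Slc11a1 gave 2.46 to 4.90 and the other probe of Cd52 gave 1.38, all in the same direction.

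The 12 largest differences on the lower side included enzymes, membrane transporters, a receptor and a lamin. Sphingosine kinase 1 (Sphk1) had levels of 5.27, 5.46 and 5.87 on the Gr1+ arrays, against 11.13, 11.49 and 12.33 on the progenitor arrays, a 67.3-fold lower level in Gr1+ cells (-6.07 ± 0.21, adjusted p = 4.21e-17 in limma). Carbonic anhydrase 1 (Car1), an early erythroid enzyme, had 5.67, 6.09 and 6.29 on the Gr1+ arrays, against 11.90, 12.05 and 12.38 on the progenitor arrays (-6.04 ± 0.25). Neither gene's Gr1+ and progenitor arrays came within 5 log2 units of each other. The water channel Aqp1 differed by -5.56 ± 0.23, the glutamine transporter Slc38a5 by -5.41 ± 0.19, Samd14 by -4.92 ± 0.18 and the thrombin receptor F2r by -4.44 ± 0.23. Lamin A/C (Lmna), a structural protein of the nuclear envelope, differed by -4.38 ± 0.20, and its other 4 probes by -2.05 to -1.05. Also lower were Mns1 (-4.25 ± 0.20), the phospholipase Pla2g12a (-4.13 ± 0.19), Rangrf, which binds the nuclear transport GTPase Ran (-4.09 ± 0.18), Fpgs, which adds glutamates to folates (-3.92 ± 0.20, other probe -1.10), and the collagen chain Col5a1 (-3.75 ± 0.21).

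**Figure D1:**
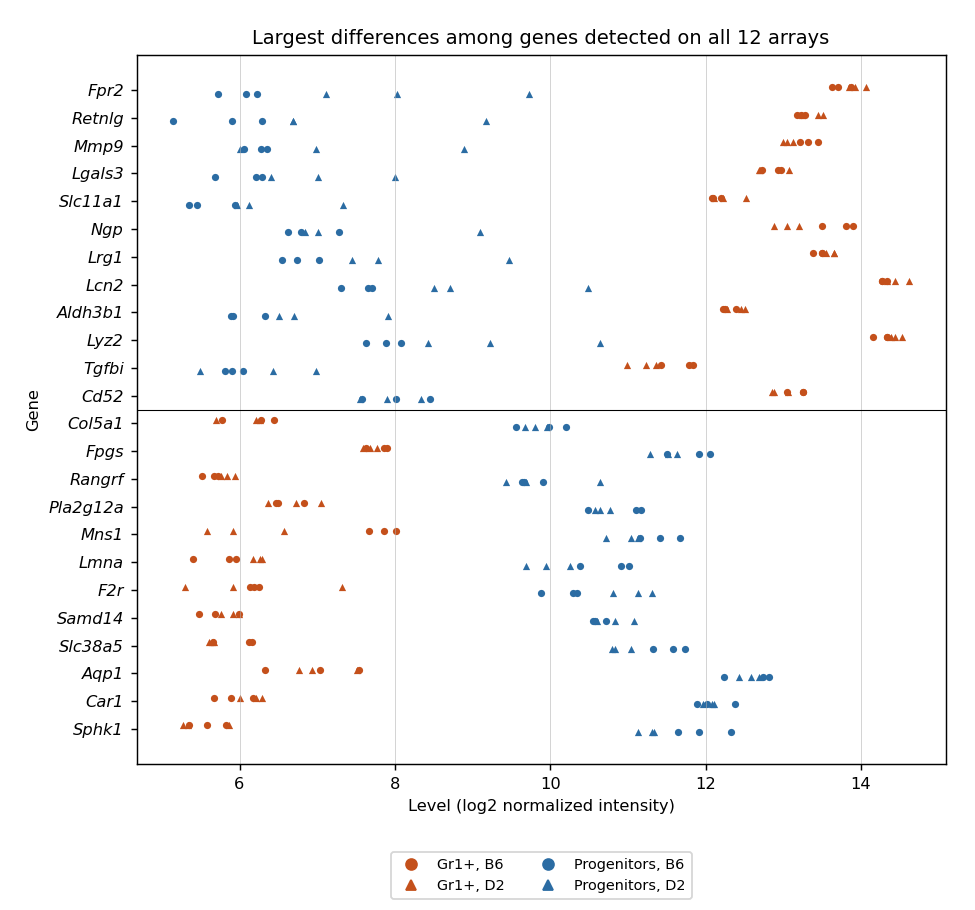
Levels (log2 normalized intensity, x axis) of the 12 genes with the highest and the 12 with the lowest differences among called genes detected on all 12 arrays, 1 row per gene. Each point is an array, Gr1+ drawn above progenitors in each row, circles for B6 and triangles for D2; for the upper 12 genes, D2 progenitor replicate 3 is the progenitor triangle farthest to the right in most rows (Fpr2 at 9.73).

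Another 152 genes higher in Gr1+ cells were detected on all 6 Gr1+ arrays and on no progenitor array, and 147 lower genes were detected on all 6 progenitor arrays and on no Gr1+ array. For these the fold is a lower bound, since an undetected array entered with the lowest intensity it detected for any probe, or with the measured one where that was higher. The stefin-like gene Cstdc4 was at least 36.1-fold higher, the integrin beta chain Itgb2l at least 32.8-fold higher, the interferon-induced membrane protein Ifitm6 at least 24.8-fold higher, the aspartic protease Asprv1 at least 22.3-fold higher and the junctional adhesion protein Jaml at least 18.3-fold higher. The ADP receptor P2ry13 was at least 16.1-fold higher, the interleukin-1 receptor antagonist Il1rn at least 15.7-fold higher and Amer2 at least 15.3-fold higher (other probe 2.96). On the other side, the matrix protein Spon2 was at least 40.9-fold lower, the carboxylesterase Ces2g at least 20.6-fold lower (other probe -1.78) and Bex4 at least 13.2-fold lower (other probe -2.73). The transcription factor Sox12 was at least 8.11-fold lower (other probe -0.49) and the actin-severing protein scinderin (Scin) at least 7.49-fold lower. Tal1, a basic helix-loop-helix factor needed for blood cell formation, was at least 6.23-fold lower, and Rhobtb3 at least 6.21-fold lower. The other probe of Rhobtb3 gave -0.12 without a call.

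Granule genes gave unlike counts by granule class. Of the 9 primary granule genes tested of 10 listed, 4 were lower in Gr1+ cells, 2 were higher and 3 were not called, with a median of -0.59. The shares lower (44.4%) and higher (22.2%) were near those of all tested genes (39.3% and 29.4%). Of the 8 detected on all 12 arrays, 1 was higher and 4 were lower, against 29.9% and 43.5% of all such genes. Of the 16 secondary and tertiary granule genes tested of 18 listed, all 16 were higher, each by at least 2-fold, with a median of 4.54, and so were the 8 of them detected on all 12 arrays. Myeloperoxidase (Mpo), the main primary granule enzyme, had levels of 13.61, 14.11 and 14.38 on the Gr1+ arrays, against 14.20, 14.85 and 14.97 on the progenitor arrays, a difference of -0.73 ± 0.15. The 2 groups overlapped for Mpo, and both stood near the top of the scale, while its other 3 probes gave larger decreases, -1.82 to -1.17. The serine proteases cathepsin G (Ctsg, -1.22 ± 0.21) and proteinase 3 (Prtn3, -1.11 ± 0.23) and the membrane protein Ms4a3 (-0.98 ± 0.22) were also lower, while neutrophil elastase (Elane) gave -0.59 ± 0.27 and missed the threshold (adjusted p = 0.0611). In D2 cells alone Mpo and Ms4a3 were not called, nor was Mpo with median or 75th percentile scaling. The other probe of Ms4a3 gave -0.25 without a call.

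Of the 2 primary granule genes that were higher, cathepsin C (Ctsc) activates the granule serine proteases and Cd63 is a granule membrane protein. Cd63 differed by 0.83 ± 0.19 and missed the threshold with median scaling. Ctsc differed by 2.23 ± 0.16 (detected on 3 of 6 progenitor arrays), and its arrays fell apart by strain: in D2 it averaged 6.08 ± 0.31 (SD, n = 3) in Gr1+ cells and 4.43 ± 0.20 in progenitors, and in B6 10.17 ± 0.10 in Gr1+ cells and 7.36 ± 0.49 in progenitors. The difference was present in each strain (1.66 in D2 and 2.81 in B6), although D2 levels were lower in both cell types. No D2 progenitor array detected the gene, so the D2 value was taken against levels not told from background. The other probes of Ctsc gave smaller differences over both strains, 0.75 and 1.61. Slpi, a secreted inhibitor of serine proteases, had the same layout by strain. It averaged 6.14 ± 0.27 in Gr1+ cells and 4.52 ± 0.37 in progenitors of D2 mice. In B6 mice it averaged 12.58 ± 0.18 in Gr1+ cells and 8.99 ± 0.45 in progenitors. Whether the probes match both strains equally was not tested.

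Of the secondary and tertiary granule genes, Ngp, a cathelicidin-family protein of neutrophil precursors, had 12.88, 13.35 and 13.90 on the Gr1+ arrays, against 6.63, 6.93 and 9.10 on the progenitor arrays (6.11 ± 0.31, adjusted p = 2.93e-14 in limma). Lipocalin 2 (Lcn2), which binds bacterial siderophores, had 14.27, 14.33 and 14.62 on the Gr1+ arrays, against 7.30, 8.10 and 10.48 on the progenitor arrays (5.98 ± 0.34). In both genes the highest progenitor array was D2 replicate 3, and it lay over 3 log2 units below the lowest Gr1+ array. The surface protein Cd177 differed by 6.57 ± 0.27 (detected on 5 of 6 progenitor arrays), Chil3, a chitinase-like protein, by 5.58 ± 0.30 (detected on 5 of 6 progenitor arrays), the peptidoglycan-binding protein Pglyrp1 by 4.66 ± 0.34, the cathelicidin Camp by 4.42 ± 0.25, haptoglobin (Hp) by 3.99 ± 0.29 and the protease Adam8 was at least 9.29-fold higher. Lactoferrin (Ltf) was already high in progenitors, at 10.93, 11.35 and 13.75, against 14.75, 14.91 and 14.97 in Gr1+ cells (3.10 ± 0.29), and its other probe gave a larger difference of 5.97. Its Gr1+ arrays lay near the top of the scale, at the levels of the brightest probes, and D2 progenitor replicate 3 came closest to them. The stefin and S100 list behaved alike, with all 9 tested genes of 12 listed higher (8 by at least 2-fold, median 3.85, or 3.40 with undetected members at their bound), the 5 detected on all 12 arrays among them. The cysteine protease inhibitor Stfa1 differed by 4.97 ± 0.27 (detected on 3 of 6 progenitor arrays), and the calprotectin subunits S100a9 and S100a8 by 4.10 ± 0.28 and 3.22 ± 0.24. Without D2 progenitor replicates 1 and 3 the granule list's median was 4.81 and that of the stefins and S100 genes 3.96, with the same counts.

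**Figure D2:**
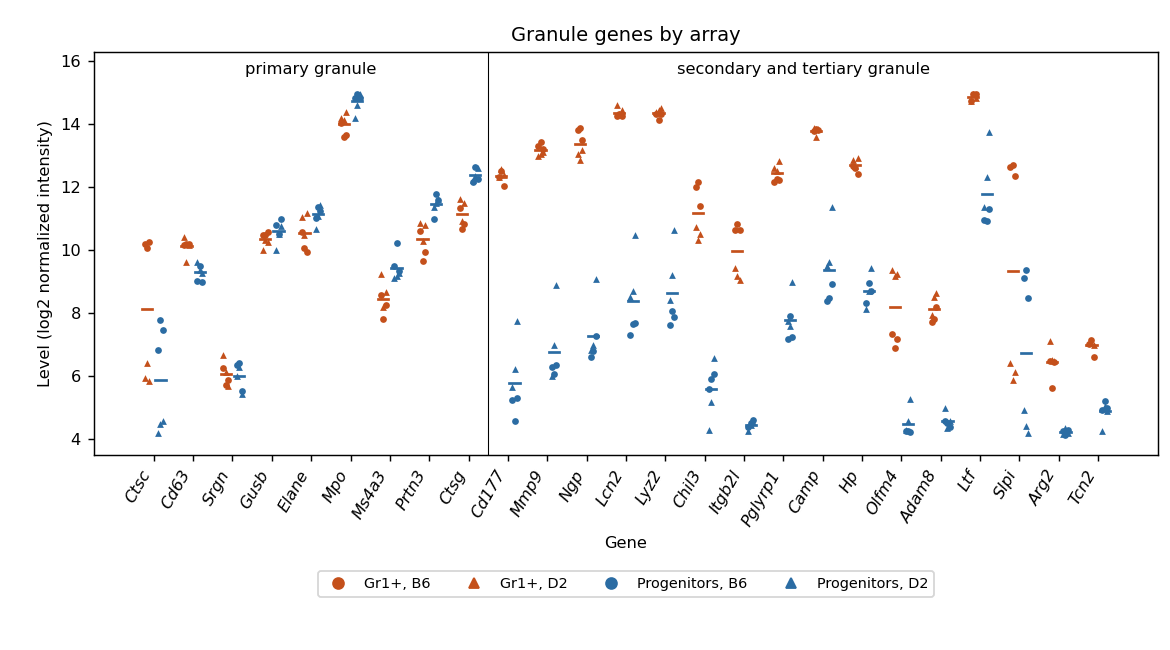
Levels (log2 normalized intensity, y axis) of the 9 primary granule genes (left of the line) and the 16 secondary and tertiary granule genes (right of it), ordered by difference within each class. Each point is an array, Gr1+ left of progenitors for each gene, circles for B6 and triangles for D2, and bars are means of 6 arrays. All 9 primary granule genes overlap between the cell types or run lower in Gr1+ cells, while all secondary and tertiary granule genes but Slpi stand apart. Of all tested genes, 21.9% stood apart with Gr1+ arrays higher and 28.1% with Gr1+ arrays lower. Only 8 of the 16 secondary and tertiary granule genes were detected on all 12 arrays.

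Promoters of granule genes are shown because CCAAT enhancer-binding proteins are known regulators of secondary granule genes. Promoter windows from RefSeq (build GRCm38.p6, 250 bases before to 50 after a gene's start) were found for 6531 of the 7925 genes. The letters TTGCNNAA or their reverse complement TTNNGCAA, a part of the binding motif of these factors, occurred in the windows of 5 of 12 secondary and tertiary granule genes (41.7%), 1 of 9 primary granule genes and 8.28% of all tested genes with a window (all 27025 windows, 10.8%). This is a description of letters, not of binding. The 250 bases before the start of Ngp (chr9:110419558-110419807, plus strand) and Lcn2 (chr2:32387740-32387989, minus strand) are given 5′ to 3′ with these letters in capitals. They are the 2 genes of the list with the largest difference that hold the letters there and have a single start in the table.
Ngp: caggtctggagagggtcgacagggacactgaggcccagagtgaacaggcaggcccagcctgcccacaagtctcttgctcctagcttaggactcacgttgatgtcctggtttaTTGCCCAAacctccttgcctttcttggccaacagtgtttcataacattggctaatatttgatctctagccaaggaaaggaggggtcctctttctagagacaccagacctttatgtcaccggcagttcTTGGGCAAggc
Lcn2: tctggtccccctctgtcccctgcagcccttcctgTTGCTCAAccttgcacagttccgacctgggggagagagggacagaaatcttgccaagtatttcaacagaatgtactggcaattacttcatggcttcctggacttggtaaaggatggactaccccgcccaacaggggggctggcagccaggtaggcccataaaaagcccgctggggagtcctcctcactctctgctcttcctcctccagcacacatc

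Receptors by which a phagocyte finds and takes up microbes were higher in Gr1+ cells. All 8 chemoattractant receptors tested of 14 listed were higher, by a median of 2.55 (2.08 with undetected members at their bound), and Fpr2, Ltb4r1 and Cxcr4 were detected on all 12 arrays. The leukotriene B4 receptor Ltb4r1 differed by 3.99 ± 0.19, the neutrophil chemokine receptor Cxcr2 was at least 6.22-fold higher and the nicotinic acid receptor Hcar2 at least 4.47-fold higher. Cxcr4, the receptor that holds neutrophils in the marrow, differed by 1.85 ± 0.20. Of the 20 pattern recognition and Fc receptors and their partners tested of 25 listed, 19 were higher and none was lower, with a median of 2.88; all 5 detected on every array were higher. Fcgr4, an activating IgG receptor, had 11.40, 11.71 and 11.96 on the Gr1+ arrays, against 5.40, 5.94 and 7.25 on the progenitor arrays (5.62 ± 0.28, detected on 5 of 6 progenitor arrays). Its Gr1+ and progenitor arrays were far apart in both strains. The lipoprotein sensor Tlr2 differed by 3.68 ± 0.16 (detected on 5 of 6 progenitor arrays), the IgG receptor Fcgr3 by 3.53 ± 0.20, the lectin receptor Clec4d by 3.43 ± 0.18 and the endotoxin receptor Tlr4 by 1.71 ± 0.21 (detected on 1 of 6 progenitor arrays). Tlr1 was the 1 gene that was not called, and no array of either cell type detected it.

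Of 13 interleukin-1 and inflammatory cytokine genes tested of 16 listed, 11 were higher and none was lower (median 1.70), with 2 higher of the 3 detected on all 12 arrays. Interleukin-1 beta (Il1b) had 9.75, 10.47 and 10.64 on the Gr1+ arrays, against 4.38, 4.59 and 6.11 on the progenitor arrays (5.53 ± 0.21, adjusted p = 3.16e-16 in limma). It was detected on 2 of 6 progenitor arrays, and none of these reached the lowest Gr1+ array. The decoy receptor Il1r2 was at least 9.16-fold higher, and with Il1rn both inhibitors of interleukin-1 were higher together with the cytokine. The cytokine oncostatin M (Osm) differed by 3.94 ± 0.30; its other probe gave 1.27. Tumour necrosis factor (Tnf) was at least 2.63-fold higher.

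All 6 NADPH oxidase genes tested of 9 listed were higher, all 5 detected on every array among them. Of the cytosolic subunits, Ncf4 differed by 3.54 ± 0.19 and Ncf1 by 3.13 ± 0.15 (detected on 1 of 6 progenitor arrays), the membrane subunit Cyba by 3.26 ± 0.13 and the GTPase Rac2 by 2.73 ± 0.18. Of 4 genes of eicosanoid synthesis tested of 12 listed, the 5-lipoxygenase Alox5 (3.97 ± 0.14, detected on 3 of 6 progenitor arrays) and its activating protein Alox5ap (2.78 ± 0.13) were higher, Alox15 was not called or detected and Ltc4s, the synthase of cysteinyl leukotrienes, was lower, with detection on 3 progenitor arrays and no Gr1+ array. The 1 gene of these detected on all 12 arrays was higher, and Ltc4s missed the threshold with median or 75th percentile scaling and without B6 progenitor replicate 2. The lysosome list had 13 higher genes and 1 lower gene of 15 tested and 26 listed (10 higher and 1 lower of the 11 detected on all 12 arrays), led by the protease Ctsh (4.57 ± 0.23, detected on 5 of 6 progenitor arrays), prosaposin (Psap, 3.60 ± 0.17), progranulin (Grn, 2.67 ± 0.18) and the sialidase Neu1 (2.02 ± 0.17). The lower gene was the acid glucosidase Gaa (-1.18 ± 0.14).

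All 20 motility and actin genes tested of 25 listed were higher, 19 by at least 2-fold, with a median of 1.76, and the 6 Gr1+ arrays did not overlap the 6 progenitor arrays for any of them, against 21.9% of all tested genes. All 17 of these genes that were detected on every array were higher. The unconventional myosin Myo1f differed by 3.64 ± 0.18, the actin-bundling protein Lcp1 by 3.29 ± 0.12, coronin 1A (Coro1a) by 2.98 ± 0.17 and the capping protein Capg by 2.88 ± 0.16. Beta-actin (Actb) differed by 2.55 ± 0.28 with the probe used, by 2.71 with another, by -1.74 and -1.66 with 2 dimmer ones, and by 0.12 without a call with the remaining 1, so its probes disagreed. Of the 15 adhesion genes tested of 20 listed, 9 were higher and 4 lower (3 higher and 1 lower of the 5 detected on all 12 arrays). The higher ones included the sialic acid receptor Cd33 (4.11 ± 0.14, detected on 1 of 6 progenitor arrays), the integrin chain Itgb7 (3.48 ± 0.26, detected on 5 of 6 progenitor arrays), the tetraspanin Cd9 (2.89 ± 0.14), the selectin ligand Selplg (2.62 ± 0.17) and Itgam, the Mac-1 alpha chain (at least 3.59-fold higher). The lower ones were Cd34 (-2.70 ± 0.21, detected on 2 of 6 Gr1+ arrays), a surface protein of progenitors, Itga2b of megakaryocytes (at least 2.1-fold lower), Icam2 (-1.01 ± 0.18) and Pecam1 (-0.78 ± 0.22, detected on 1 of 6 Gr1+ arrays). Icam2 and Pecam1 missed the threshold with median scaling, and Icam2 with 75th percentile scaling too.

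Transcription factors of the myeloid path were higher and those of stem and erythroid cells mostly lower. Of 14 myeloid factors tested of 17 listed, 13 were higher and none was lower (median 2.57), including 7 of the 8 detected on all 12 arrays. The germinal centre repressor Bcl6, which granulocytes also express, differed by 4.45 ± 0.24, Klf2 by 4.17 ± 0.31 (detected on 2 of 6 progenitor arrays), and Irf5 by 3.22 ± 0.18 (detected on 2 of 6 progenitor arrays). Cebpb, the family member known for emergency granulopoiesis, had 11.10, 11.54 and 11.80 on the Gr1+ arrays, against 7.04, 7.30 and 7.72 on the progenitor arrays (4.12 ± 0.19). Cebpe, needed for secondary granules, had 10.50, 10.89 and 11.45 on the Gr1+ arrays, against 7.22, 7.91 and 8.67 on the progenitor arrays (3.07 ± 0.23). The Gr1+ and progenitor arrays did not overlap for either of these. Spi1 (PU.1) differed by 2.34 ± 0.17 (detected on 2 of 6 progenitor arrays). Gfi1, a repressor that acts in granulocyte precursors, gave -0.31 ± 0.20 and was not called.

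Of 19 stem and erythroid factors tested of 25 listed, 13 were lower and 2 higher, with a median of -1.48; of the 8 detected on all 12 arrays, 4 were lower and 2 higher. Gfi1b, the erythroid and megakaryocyte relative of Gfi1, had 4.53, 4.73 and 4.80 on the Gr1+ arrays, against 9.54, 9.63 and 10.14 on the progenitor arrays (-5.00 ± 0.19, detected on 1 of 6 Gr1+ arrays). Gfi1 and Gfi1b, close relatives, thus gave unlike values on their own probes. The erythroid activator Klf1 differed by -4.52 ± 0.23 (detected on 3 of 6 Gr1+ arrays), Meis1, a homeodomain factor of stem cells, by -3.15 ± 0.26 (detected on 5 of 6 Gr1+ arrays) (other probe -0.46), Gata1 was at least 2.25-fold lower and Myc at least 1.64-fold lower. The higher ones were Nfe2 (1.15 ± 0.18), a basic leucine zipper factor, and the homeodomain factor Hhex (0.94 ± 0.15), and both missed the threshold with median scaling, Hhex also with 75th percentile scaling. Of 10 growth factor receptors tested of 18 listed, 6 were higher, with a median of 1.40, led by the receptor chains for GM-CSF (Csf2ra, 3.29 ± 0.20) and G-CSF (Csf3r, 3.10 ± 0.18, detected on 3 of 6 progenitor arrays) and the interleukin-6 receptor (Il6ra, 2.72 ± 0.18, detected on 2 of 6 progenitor arrays), and 3 were lower, Kit, the transferrin receptor Tfrc (-2.47 ± 0.15) and the erythropoietin receptor Epor (-1.81 ± 0.26, detected on 3 of 6 Gr1+ arrays). Of the 4 detected on all 12 arrays, 1 was higher and 2 were lower, and their median was -1.09.

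Genes of DNA replication and genes of mitosis gave unlike counts. Of 38 replication genes tested of 44 listed, 35 were lower in Gr1+ cells (28 by at least 2-fold) and none was higher, with a median of -1.27. Of 33 mitosis genes tested of 50 listed, 10 were lower, none of them by 2-fold, 1 was higher and 22 were not called, with a median of -0.18, against -0.13 for all genes. Among members detected on all 12 arrays, 32 of 34 replication genes and 10 of 27 mitosis genes were lower, against 43.5% of all such genes. Scaled to the median or the 75th percentile of each array, 2 mitosis genes stayed lower and 29 or 33 replication genes did, and without D2 progenitor replicates 1 and 3 the counts were 5 and 36. The 2 lists were not tested against each other.

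The mean level of the replication list ran from 7.34 to 7.61 on Gr1+ arrays and from 8.51 to 8.84 on progenitor arrays, with no overlap. That of the mitosis list ran from 7.38 to 7.90 on Gr1+ arrays and from 7.56 to 7.99 on progenitor arrays, and the ranges overlapped. Levels were lower in D2 than in B6 in both cell types, and within D2 the 3 Gr1+ arrays ended at 7.53 and the 3 progenitor arrays began at 7.56. The DNA polymerase delta subunit Pold2 had 5.85, 6.11 and 6.21 on the Gr1+ arrays, against 8.00, 8.43 and 8.87 on the progenitor arrays (-2.32 ± 0.16). Mcm2, a subunit of the replicative helicase, had 7.31, 7.38 and 7.63 on the Gr1+ arrays, against 9.15, 9.23 and 9.51 on the progenitor arrays (-1.87 ± 0.15). All 6 helicase subunits, Mcm2 to Mcm7, were lower, from -1.87 (Mcm2) to -1.22 (Mcm5). The uracil glycosylase Ung differed by -1.97 ± 0.17 and the single-strand binding subunit Rpa2 by -1.83 ± 0.22. Rrm2, the regulated subunit of ribonucleotide reductase, gave -0.08 ± 0.26 and was not called.

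Top2a, which untangles chromosomes, had 8.06, 8.22 and 8.72 on the Gr1+ arrays, against 8.06, 8.46 and 8.61 on the progenitor arrays, and the groups overlapped (-0.11 ± 0.13). The kinase Aurkb gave -0.10 ± 0.21, the passenger protein Birc5 -0.09 ± 0.17 and the mitotic kinase Cdk1 -0.49 ± 0.22, none of them called. The largest decrease of the list was that of Cdc20, an activator of the anaphase-promoting complex (-0.72 ± 0.19), followed by the cohesin protector Cdca5 (-0.67 ± 0.18), Kif22 (-0.55 ± 0.19) and Bub3 (-0.49 ± 0.18). Cdc20 and Kif22 missed the threshold with either of those scalings, and Bub3 in D2 alone, without D2 Gr1+ replicate 1 and without D2 progenitor replicates 1 and 3. Kif23, a motor of the dividing cell's midzone, was the 1 higher gene (1.19 ± 0.27), with 1.18 and -1.32 from its other probes, so that its direction rests on the probe.

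**Figure D3:**
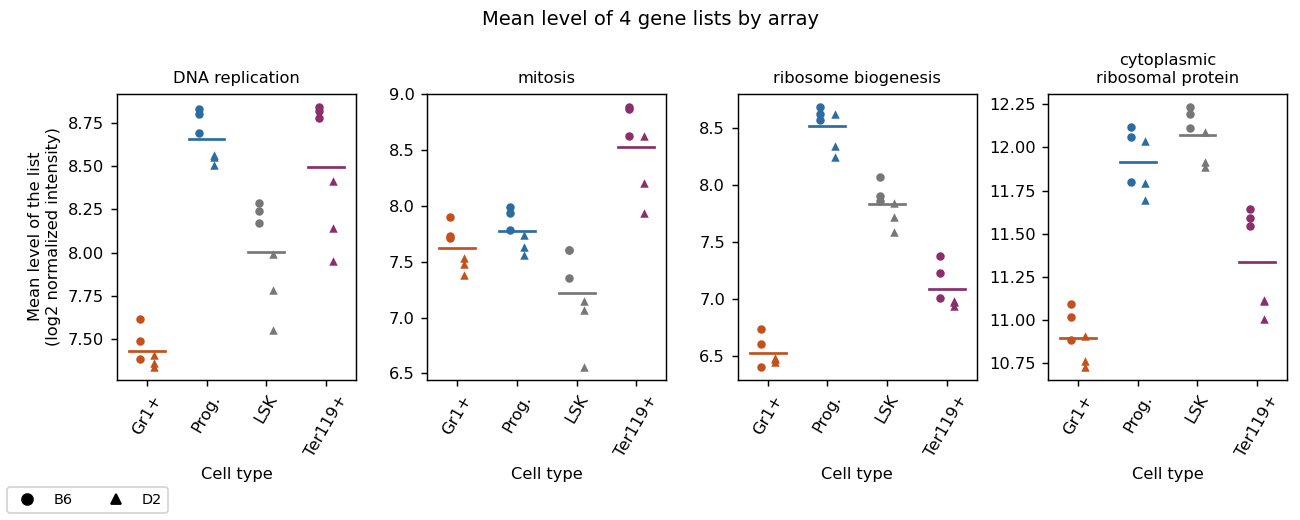
Mean level (log2 normalized intensity, y axis, own range in each panel) of the DNA replication, mitosis, ribosome biogenesis and cytoplasmic ribosomal protein lists on each array, by cell type, circles for B6 and triangles for D2, with bars for means of 6 arrays. Gr1+ arrays lie below all progenitor arrays in every panel but that of mitosis, where they overlap across strains (7.38 to 7.90 against 7.56 to 7.99).

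The 2 lists also differed in the letters of their promoter windows, which are shown for that reason. The letters GCGGGAA or TTCCCGC, a form of the site of E2F factors, occurred in 14 of 31 replication windows (45.2%), in 0 of 28 mitosis windows and in 8.65% of all tested genes with a window (all windows, 4.66%). The letters TTTGAA or TTCAAA, the cell cycle homology region read by the DREAM complex, occurred in 23 of 28 mitosis windows (82.1%), 5 of 31 replication windows (16.1%) and 12.1% of all tested genes (all windows, 18.1%). Among genes called lower the shares were 10.9% and 11.8%. The CCAAT box (CCAAT or ATTGG) was found in 18 of 31 replication windows and 19 of 28 mitosis windows, against 39.4% of all tested genes (all windows, 37.9%). Below are the 250 bases before the start of Rpa2 (chr4:132768110-132768359, plus strand) and Chaf1b, a histone chaperone subunit (chr16:93883651-93883900, plus strand), with the E2F letters in capitals, and of Cdc20 (chr4:118437344-118437593, minus strand) and Cdca5 (chr19:6084847-6085096, plus strand), with the cell cycle homology letters in capitals. They were picked by the same rule as the granule promoters.
Rpa2: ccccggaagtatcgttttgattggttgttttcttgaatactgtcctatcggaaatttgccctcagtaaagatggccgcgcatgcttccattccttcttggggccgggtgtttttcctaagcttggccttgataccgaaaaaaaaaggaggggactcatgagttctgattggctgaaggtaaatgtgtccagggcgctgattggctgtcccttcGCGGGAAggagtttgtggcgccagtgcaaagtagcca
Chaf1b: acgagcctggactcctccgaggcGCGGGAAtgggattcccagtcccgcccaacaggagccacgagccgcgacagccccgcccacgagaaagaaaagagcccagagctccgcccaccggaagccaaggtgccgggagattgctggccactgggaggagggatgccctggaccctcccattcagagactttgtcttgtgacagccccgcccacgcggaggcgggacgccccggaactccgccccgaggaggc
Cdc20: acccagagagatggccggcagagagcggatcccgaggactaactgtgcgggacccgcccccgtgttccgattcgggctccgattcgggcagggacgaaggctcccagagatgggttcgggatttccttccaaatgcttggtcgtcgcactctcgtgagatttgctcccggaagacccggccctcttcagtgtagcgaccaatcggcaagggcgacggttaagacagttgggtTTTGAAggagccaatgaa
Cdca5: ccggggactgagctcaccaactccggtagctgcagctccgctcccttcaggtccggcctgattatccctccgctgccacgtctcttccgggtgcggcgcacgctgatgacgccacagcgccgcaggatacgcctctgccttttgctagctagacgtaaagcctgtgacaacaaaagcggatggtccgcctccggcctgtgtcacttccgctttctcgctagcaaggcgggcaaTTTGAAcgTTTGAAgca

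Regulators of the start of the cycle moved both ways, 8 higher and 6 lower of 17 tested and 22 listed (4 higher and 2 lower of the 7 detected on all 12 arrays). The G1 kinase Cdk4 had 6.27, 6.46 and 6.65 on the Gr1+ arrays, against 8.94, 9.16 and 9.28 on the progenitor arrays (-2.67 ± 0.16). Its inhibitor Cdkn2d (p19) had 7.38, 7.69 and 8.15 on the Gr1+ arrays, against 4.64, 4.90 and 5.70 on the progenitor arrays (2.70 ± 0.24, detected on 4 of 6 progenitor arrays). The kinase and its inhibitor thus differed in opposite directions, with no overlap of the arrays of either. Cyclin E1 (Ccne1, -1.17 ± 0.23, detected on 2 of 6 Gr1+ arrays and on 5 of 6 progenitor arrays), cyclin D1 (Ccnd1, -0.91 ± 0.19, detected on 5 of 6 Gr1+ arrays) and cyclin D2 (Ccnd2, -0.85 ± 0.21, detected on 2 of 6 Gr1+ arrays and on 5 of 6 progenitor arrays) were lower, Ccnd1 without a call under median scaling, while cyclin D3 (Ccnd3, 2.38 ± 0.16) and E2f2 (2.94 ± 0.21, detected on 3 of 6 progenitor arrays) were higher. The growth arrest gene Gas7 differed by 4.40 ± 0.31 (detected on 5 of 6 progenitor arrays) and the antiproliferative factor Btg1 by 3.26 ± 0.26.

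Genes that make ribosomes were lower in Gr1+ cells. All 34 ribosome biogenesis genes tested of 45 listed were lower by at least 2-fold, with a median of -1.98, and so were all 25 detected on all 12 arrays. The 6 Gr1+ arrays did not overlap the progenitor arrays for 32 of them, against 28.1% of all tested genes. Noc4l, a factor of small-subunit assembly, had 7.19, 7.58 and 7.80 on the Gr1+ arrays, against 9.99, 10.44 and 10.75 on the progenitor arrays (-2.84 ± 0.14). Nop56, a core protein of small nucleolar particles, had 4.76, 5.49 and 5.81 on the Gr1+ arrays, against 8.00, 8.10 and 8.45 on the progenitor arrays (-2.74 ± 0.30, detected on 5 of 6 Gr1+ arrays). Both genes had all Gr1+ arrays below all progenitor arrays. Gar1, of the pseudouridine particles, differed by -2.69 ± 0.22, Wdr75 by -2.71 ± 0.14 (other probe -1.14) and nucleolin (Ncl) by -2.63 ± 0.16. Among RNA polymerase I subunits, Polr1a, Polr1b, Polr1c and Polr1e were all lower, from -2.05 (Polr1e) to -1.18 (Polr1a). Polr1b gave -0.09 in D2, where no array detected it, and -2.47 in B6 (interaction adjusted p = 5.27e-06). The E-box letters CACGTG, which Myc binds, were found in 8 of 31 ribosome biogenesis windows (25.8%), against 10.7% of all tested genes with a window (all windows, 7.24%). The same letters occurred in 4 of 13 lysosome windows (30.8%) and 3 of 9 immediate early windows (33.3%), lists that were mostly higher. They occurred in 4 of 42 cytoplasmic ribosomal protein windows (9.52%), a list that was mostly lower. Binding was not tested.

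Cytoplasmic ribosomal protein genes had smaller differences: 46 of 50 tested and 79 listed were lower, 28 of them by at least 2-fold, and the median was -1.08 (1 higher and 43 lower of the 47 detected on all 12 arrays). The largest were Rpl22 (-2.34 ± 0.16), Rplp0 (-1.99 ± 0.21), Rpl4 (-1.95 ± 0.14) and Rpl13a (-1.75 ± 0.13). Rpl23 was the 1 higher gene (0.78 ± 0.14), but its other probes gave -1.25 and -0.71, and the mean of its probes was lower. Many ribosomal protein genes have near-identical pseudogenes, so their values are uncertain. Of 16 aminoacyl-tRNA synthetases tested of 20 listed, 14 were lower and none was higher (median -1.11), including all 13 detected on all 12 arrays, led by Farsb (-2.14 ± 0.13) and Kars (-2.08 ± 0.14). Of 16 chaperone genes tested of 24 listed, 15 were lower and none was higher (median -1.65), with 14 lower of the 15 detected on all 12 arrays. They included Hsph1 (-2.88 ± 0.26), the chaperonin subunit Cct3 (-2.67 ± 0.12) and the mitochondrial chaperones Hspd1 (-2.55 ± 0.24) and Hspa9 (-2.54 ± 0.13).

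Enzymes that make nucleotides and one-carbon units were lower in 20 of 22 tested cases of 27 listed (median -1.84), and in 13 of the 14 detected on all 12 arrays. Mthfd1, the cytosolic folate enzyme, had 4.88, 5.43 and 5.76 on the Gr1+ arrays, against 8.68, 8.97 and 9.27 on the progenitor arrays (-3.62 ± 0.18, detected on 4 of 6 Gr1+ arrays). Its Gr1+ and progenitor arrays stood over 2 log2 units apart. The CTP synthase gene (Ctps) differed by -2.87 ± 0.19, Cad, which starts pyrimidine synthesis, by -2.48 ± 0.16 (detected on 3 of 6 Gr1+ arrays) and the purine enzyme Adsl by -2.36 ± 0.15. Adss, a late purine enzyme, was the 1 higher gene (0.48 ± 0.17, detected on 5 of 6 progenitor arrays), and its call was lost with median or 75th percentile scaling, in either strain alone and without D2 progenitor replicate 1.

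Energy genes went both ways. Of 59 respiratory chain genes tested of 77 listed, 43 were lower and 2 higher, with a median of -0.75 (2 higher and 42 lower of the 56 detected on all 12 arrays). Scaled to the median of each array, 23 were lower and none higher. The complex I subunits Ndufa12 (-1.91 ± 0.17) and Ndufab1 (-1.80 ± 0.17), the complex III subunit Uqcr11 (-1.71 ± 0.15) and Ndufs3 (-1.45 ± 0.13) had the largest decreases, and Uqcrq (1.15 ± 0.30) and Ndufa13 (0.31 ± 0.13) were higher. Both missed the threshold with median or 75th percentile scaling, and Ndufa13 also in either strain alone and without Gr1+ replicate 1 or 2 or progenitor replicate 3 of either strain. Of 19 glycolysis and glycogen genes tested of 30 listed, 14 were higher and 4 lower (median 0.76), with 13 higher and 4 lower of the 17 detected on all 12 arrays. The regulatory enzyme Pfkfb4 had 11.29, 11.60 and 11.88 on the Gr1+ arrays, against 6.91, 7.06 and 8.03 on the progenitor arrays (4.38 ± 0.27). The liver-type glycogen phosphorylase Pygl differed by 3.75 ± 0.15, the glucose transporter Slc2a3 by 3.10 ± 0.14 and the hexokinase Hk3 by 2.63 ± 0.25. Of the 3 phosphofructokinase genes, the muscle type Pfkm had 5.39, 5.71 and 6.03 on the Gr1+ arrays, against 8.91, 9.43 and 9.95 on the progenitor arrays (-3.73 ± 0.22). The liver type Pfkl was also lower (-1.96 ± 0.14) and the platelet type Pfkp slightly higher (0.44 ± 0.16).

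The nuclear envelope list was divided, 6 higher and 4 lower of 14 tested and 16 listed (4 higher and 4 lower of the 11 detected on all 12 arrays). Lmna had 5.40, 6.06 and 6.28 on the Gr1+ arrays, against 9.69, 10.31 and 11.02 on the progenitor arrays. Lbr, the lamin B receptor known for shaping the neutrophil nucleus, had 12.11, 12.41 and 12.48 on the Gr1+ arrays, against 11.24, 11.40 and 11.58 on the progenitor arrays (0.93 ± 0.11). Lamin B1 (Lmnb1) differed by 0.53 ± 0.13 and the envelope protein Sun2 by 1.80 ± 0.14 (other probe 2.72). Lbr missed the threshold with median scaling. Of 17 chromatin genes tested of 26 listed, 4 were higher and 7 lower (3 higher and 6 lower of the 10 detected on all 12 arrays). The demethylase Kdm6b differed by 2.73 ± 0.28, and Padi4, which citrullinates histones during extracellular trap formation, was at least 1.94-fold higher. The methyltransferase Dnmt3b differed by -3.09 ± 0.18, the deacetylase Hdac2 by -1.68 ± 0.17 and the maintenance methyltransferase Dnmt1 by -0.94 ± 0.15, the last without a call under median scaling.

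Of 19 apoptosis genes tested of 26 listed, 12 were higher and 3 lower, and with median scaling 4 and 1. Of the 13 detected on all 12 arrays 9 were higher and 2 lower. The death receptor Fas was at least 8.04-fold higher with the probe used (other probe 1.46). Mcl1, which neutrophils need to survive, differed by 1.58 ± 0.15, and Casp4 by 1.85 ± 0.14 (other probe 0.21, not called). The lower ones were Bcl2 (-1.48 ± 0.21, detected on 1 of 6 Gr1+ arrays), Casp2 (-0.85 ± 0.12) and Casp6 (-0.63 ± 0.23), both caspases without a call under median or 75th percentile scaling, Casp6 also without B6 progenitor replicate 3 and with no detection filter. Other probes of Bcl2 gave -0.82, -0.69 and -0.25, the last without a call. Of 11 immediate early genes tested of 17 listed, 8 were higher and 1 lower (6 higher and 0 lower of the 6 detected on all 12 arrays), led by Zfp36, which destabilises cytokine mRNAs (4.11 ± 0.34), Klf6 (3.55 ± 0.29, detected on 4 of 6 progenitor arrays), Dusp1 (3.22 ± 0.37) and Junb (3.19 ± 0.24). Their mean level varied widely among progenitor arrays (5.86 to 7.91), against 8.13 to 9.19 on Gr1+ arrays; the part of cell handling in this was not tested. Of 8 heme synthesis genes tested of 9 listed, Alad (-3.21 ± 0.14), Urod (-1.92 ± 0.12) and Uros (at least 1.78-fold lower) were lower and the erythroid enzyme Alas2 higher (1.08 ± 0.22, detected on 4 of 6 progenitor arrays), though not called in D2 alone. Of the 4 detected on all 12 arrays, 2 were lower and none was higher.

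**Figure D4:**
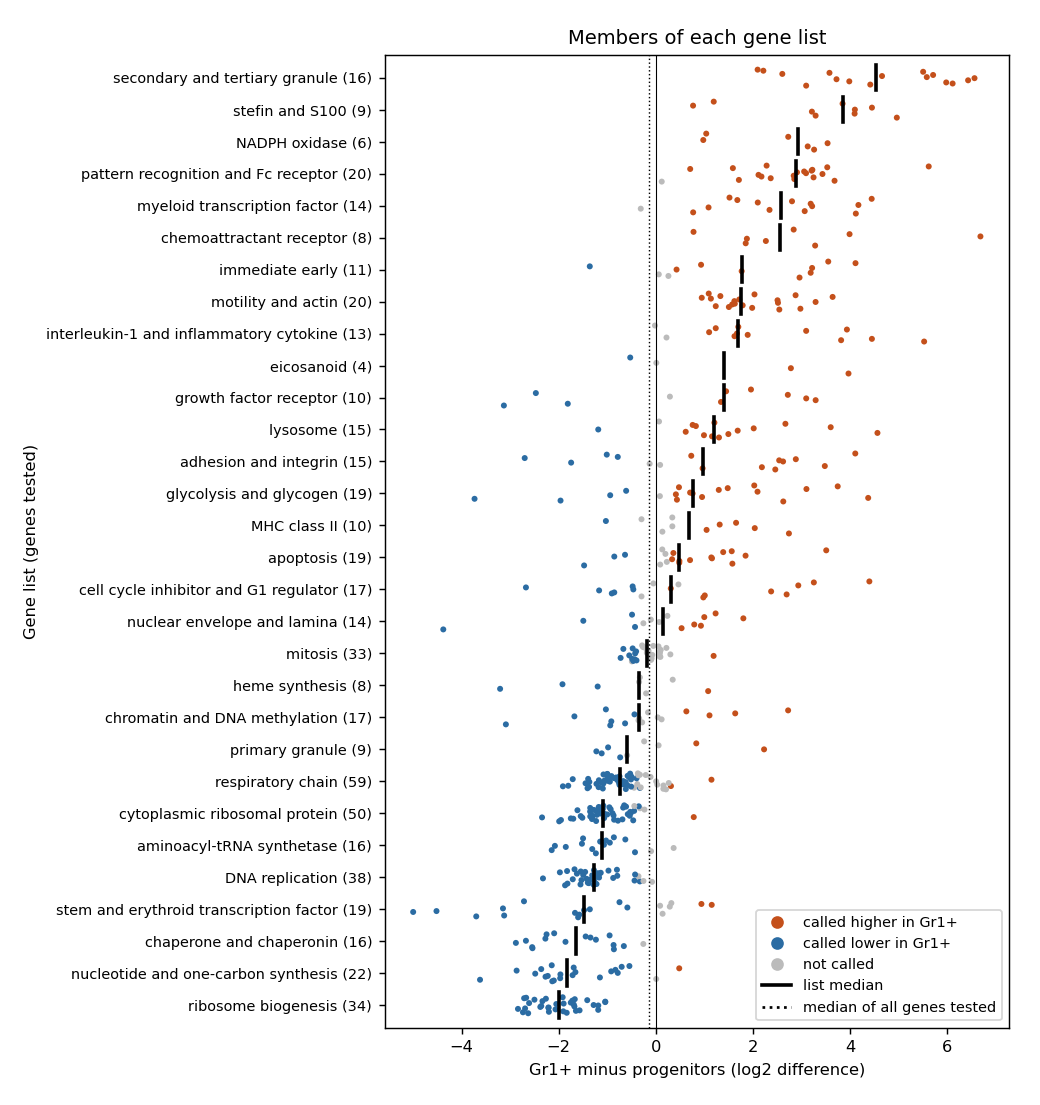
Difference between Gr1+ cells and progenitors (log2, x axis) of every tested member of the 30 gene lists, ordered by list median (black bar), with the number of genes tested in brackets. Orange points were called higher in Gr1+ cells, blue points lower and grey points not; the dotted line is the median of all genes (-0.13), and the medians run from -1.98 (ribosome biogenesis) to 4.54 (secondary and tertiary granules).

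Markers of other cells were also measured. Of 11 monocyte and macrophage genes tested of 14 listed, 10 were higher in Gr1+ cells, led by the factor XIII chain F13a1 (2.97 ± 0.17) and Ly86 (2.30 ± 0.16). Their summed linear level ran from 1858 to 2162 on Gr1+ arrays and from 356 to 513 on progenitor arrays, with C1qc detected on no Gr1+ array and Cx3cr1, Adgre1, Mrc1 and the 3 C1q chains on no progenitor array. Of 9 B cell genes tested of 12 listed, 5 were higher, among them Vpreb3 (2.08 ± 0.25, detected on 3 of 6 progenitor arrays) and Igll1 (1.27 ± 0.25, detected on 5 of 6 progenitor arrays), and 1 of the 5, Blnk, was detected on no array of either cell type. Their sum ran from 513 to 917 on Gr1+ arrays and from 275 to 364 on progenitor arrays, and Ms4a1 was likewise not detected. All 4 T and NK cell genes tested of 10 listed were higher, with sums from 288 to 1539 on Gr1+ arrays, against 75.6 to 100.3 on progenitor arrays. The upper end of that range came from Cd3d, which averaged 10.35 ± 0.18 in D2 and 7.18 ± 0.18 in B6 Gr1+ cells (SD, n = 3), while no array of progenitors detected Cd3e, Cd3g or Cd2. The part of monocytes and lymphocytes in the differences above was not tested.

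Erythroid and megakaryocyte markers were lower in Gr1+ cells. Of 12 erythroid genes tested of 16 listed, 8 were lower and 3 higher, the anion exchanger Slc4a1 (1.77 ± 0.34), the globin Hba-a1 (1.34 ± 0.28) and Alas2. Their summed level ran from 2146 to 5459 on Gr1+ arrays and from 6561 to 8965 on progenitor arrays, against at least 58964 on Ter119+ arrays. All 7 megakaryocyte genes tested of 12 listed were lower, led by Gp5 (-4.31 ± 0.18, detected on 1 of 6 Gr1+ arrays), with sums from 141 to 182 on Gr1+ arrays and from 799 to 1091 on progenitor arrays. Of 4 mast cell and basophil genes tested of 9 listed, histidine decarboxylase (Hdc) was higher (3.59 ± 0.27) and 2 were lower, Cpa3 (-2.70 ± 0.20, detected on 4 of 6 Gr1+ arrays) among them. Of 4 eosinophil genes tested of 9 listed 2 were higher, led by Prg2 (1.86 ± 0.46), and the 1 plasma cell gene tested, Mzb1, gave 1.62 ± 0.18 (detected on 3 of 6 progenitor arrays). Of 2 dendritic cell genes tested of 6 listed, Siglech was higher (detected on 5 of 6 Gr1+ arrays and on no progenitor array) and Zbtb46 lower (detected on 3 of 6 progenitor arrays and on no Gr1+ array). Of 4 stem cell genes tested of 8 listed 3 were lower, Meis1 among them, and Hoxa9 and Mllt3 were detected on no Gr1+ array. Of 10 MHC class II genes 5 were higher and 1 lower (2 higher and 0 lower of the 3 detected on all 12 arrays), with the invariant chain Cd74 at 2.74 ± 0.23.

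Set against Ter119+ erythroid cells, 4660 genes differed in Gr1+ cells (58.8%). Both cell types descend from progenitors, and their differences from progenitors share the progenitor arrays, so the direct test is given. The 12 neutrophil markers summed to 157714 to 172786 on Gr1+ arrays and 36668 to 60191 on Ter119+ arrays. The 9 B cell genes tested summed to 513 to 917 on Gr1+ arrays and 6035 to 11830 on Ter119+ arrays. The part of neutrophil and B cell RNA in the direct test was not tested. All 16 secondary and tertiary granule genes were higher in Gr1+ than in Ter119+ cells (median 2.95), as were 19 of 20 motility genes. Lower in Gr1+ than in Ter119+ cells were 35 of 38 replication genes and 32 of 33 mitosis genes, where 31.6% of all genes were. The mitosis list, mostly uncalled against progenitors, thus stood apart from Ter119+ cells. Of the ribosome biogenesis genes, 19 of 34 were lower in Gr1+ than in Ter119+ cells and 1 was higher. Their median was -1.98 in Gr1+ cells and -1.48 in Ter119+ cells, each relative to progenitors. For glycolysis and glycogen the medians were 0.76 and -0.49, and 16 of 19 genes were higher in Gr1+ than in Ter119+ cells, against 27.2% of all genes.

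The comparison was repeated within each strain, and the strains share no array. In D2, 4509 genes were called (56.9%), and in B6 4502 (56.8%). Called in both with the same sign were 3843 genes, 85.2% of the D2 calls and 85.4% of the B6 calls, and 9 were called with opposite signs. Scaled to array medians, 1341 genes were called in D2 and 2197 in B6. The test of the difference between strains called 162 genes (2.04%), with the difference higher in D2 for 1.1% of tested genes and lower for 0.946%. That count moved with the processing: it was 31 with median scaling, 53 with 75th percentile scaling, 15 over genes detected on all 12 arrays, 369 with array weights and 90 without D2 progenitor replicates 1 and 3. The 6 genes with the smallest p, provisional symbols left out, were detected in some strain and cell type groups and absent from others.

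Fcer1g, the signalling chain of Fc receptors, averaged 12.48 ± 0.13 in Gr1+ cells and 7.92 ± 0.35 in progenitors of B6 mice (SD, n = 3), while no D2 array of any of the 4 cell types detected it. Its difference was 0.01 in D2 and 4.56 in B6 (interaction adjusted p = 5.73e-09 in limma). Foxd4 was detected on the 3 B6 Gr1+ arrays (8.22 ± 0.03) and on no other array of the series. Trim30b averaged 8.07 ± 0.19 in B6 Gr1+ cells and was detected on no D2 array, and Tcea3 averaged 5.10 ± 0.34 in D2 and 8.34 ± 0.17 in B6 Gr1+ cells. In these 4 genes the Gr1+ level was higher in B6. The kinase Fgr had the opposite layout, with 7.98 ± 0.34 in D2 Gr1+ cells and no detection in B6 Gr1+ cells or in any progenitor array. Mst1r, a receptor tyrosine kinase, was detected on the 3 D2 progenitor arrays (8.19 ± 0.02) and on no Gr1+ array. No probe was checked for strain variants, so for a gene detected in 1 strain a difference in transcript level and one in probe binding cannot be told apart.

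**Figure D5:**
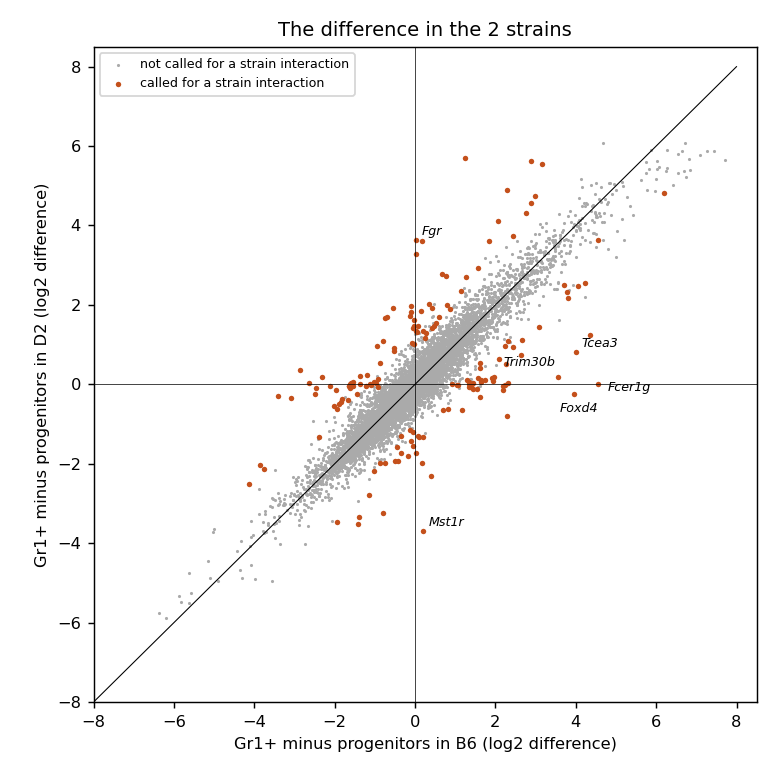
Difference between Gr1+ cells and progenitors (log2) in B6 (x axis) and D2 (y axis) for the 7925 genes, with equal values on the diagonal. Orange points are the 162 genes called for a strain interaction, with the 6 of smallest p named, and most grey points lie near the diagonal (Pearson's r 0.945 across genes, which are not independent replicates).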

How the data were processed

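Total RNA was amplified and hybridised to Illumina mouse bead arrays, 24 in all and 12 for this comparison, per the labels' protocols. The deposited probe intensity of each array was not normalized, per the file headers, and its values lay between 67.9 and 46120, with no sign of background subtraction. The deposited fraction per probe is headed as a p-value but rises with intensity, so 1 minus it was taken as the detection p. GenomeStudio is named, with no version, per the submitters' processing notes, and the role of other software is not given in the sources used here. The 24 columns of presence calls were not used. The log2 values of the deposited series table equalled quantile-normalized raw intensities within 0.00113 and served as an alternative. No slide or scan information was used.

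Intensities were corrected by normexp with detection p-values (neqc, offset 16), quantile-normalized over 24 arrays and set to log2 in limma 3.58.1 (R 4.3.3). A probe was kept if detected at p under 0.01 on all 3 arrays of at least 1 of 8 groups (12668 probes, of which 11034 had a gene symbol). Each gene took its kept probe of highest mean, leaving 7925 genes. Of 45281 probes, 34885 had 1 gene symbol in the platform annotation, 18 had several and 10378 were not listed there. One mean per group was fitted over all 24 arrays with lmFit and eBayes (16 residual degrees of freedom), and p-values were adjusted by Benjamini-Hochberg over all genes.

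Named genes followed a rule: the 12 highest and 12 lowest differences among called genes detected on all 12 arrays with no overlap in either strain, up to 8 bounds in each direction, the members of the lists with the largest differences, those that went against their list, and the 6 smallest interaction p-values. One gene among the bounds is not reported here. Further list members were named by choice after their values were seen. The members, lists and tests were chosen with earlier results of these data known. Promoter windows are RefSeq's on GRCm38.p6, the first listed start of each gene being used for motif shares, and a motif was searched on both strands. Alternatives changed the background correction, scaling, detection filter, probe choice, model, variance, weights and arrays. The fit was checked on simulated data. The number of arrays limits the precision. Figures were drawn with matplotlib 3.10.9.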

Additional observations from a re-analysis of the deposited data

Results flagged for a closer look

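The tests of the strain difference called 27 of the genes that were named by the rules or held by a gene list. Over all tested genes the count was 162 of 7925 (2.04%). Some of the 27 were named for the smallest interaction p, so their calls were set by that choice. Whether named and listed genes were called more often than all genes was not tested. Each value here is the difference in D2 minus the difference in B6 on the log2 scale, with ± its SE and limma's adjusted p.

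Of the 6 genes with the smallest p, Foxd4 gave -4.21 ± 0.20 (adjusted p = 1.82e-12), Mst1r -3.91 ± 0.21 (adjusted p = 1.4e-11), Trim30b -3.37 ± 0.25 (adjusted p = 4.72e-09), Fcer1g -4.55 ± 0.34 (adjusted p = 5.73e-09), Fgr 3.60 ± 0.30 (adjusted p = 3.71e-08) and Tcea3 -3.20 ± 0.30 (adjusted p = 3.68e-07).

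Among granule, stefin and receptor genes, the rise was smaller in D2 for Itgb2l (-1.38 ± 0.26), Stfa2l1 (-0.91 ± 0.22), the chemokine receptors Cxcr1 (-1.65 ± 0.28) and Ccr2 (-1.55 ± 0.29) and the chemokine Ccl6 (-1.20 ± 0.25). It was larger in D2 for the olfactomedin Olfm4 (1.67 ± 0.28), the IgG receptor Fcgr3 (1.56 ± 0.40), the platelet-activating factor receptor Ptafr (1.01 ± 0.25), the peptidoglycan sensor Nod2 (0.94 ± 0.24) and the adhesion protein Vcam1 (1.21 ± 0.24). Adjusted p-values of these 10 genes lay between 7.15e-04 and 0.0418. Mxd1, a partner of Max that opposes Myc, rose by 1.25 in D2 and by 4.36 in B6 (-3.11 ± 0.39, adjusted p = 1.85e-05).

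Of the genes that fell, the lysosomal glucosidase Gaa gave 1.39 ± 0.27, the purine enzyme Pfas -1.65 ± 0.39, and the RNA polymerase I subunits Polr1a -1.51 ± 0.36 and Polr1b 2.38 ± 0.27, 1 in each direction. Zbtb46 gave 1.38 ± 0.21 and was detected in B6 progenitors and in neither cell type of D2.

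Markers of other cells also differed. Cd3d gave 2.73 ± 0.34 (adjusted p = 1.54e-05) and Cd3e, a subunit of the same T cell receptor complex, -1.76 ± 0.26 (adjusted p = 1.65e-04), in opposite directions: Cd3d averaged 10.35 in D2 and 7.18 in B6 Gr1+ cells, and Cd3e 4.76 and 6.48. Histidine decarboxylase (Hdc) gave 2.59 ± 0.55, with progenitor levels of 6.64 in D2 and 11.17 in B6. The mast cell and basophil genes Fcer1a (-2.71 ± 0.41) and Cpa3 (-1.52 ± 0.40, adjusted p = 0.048) went the other way. The match of these probes to each strain was not tested.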

How the results depend on the processing

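Alternatives changed the number of calls more than the named genes. The 40 genes with the largest differences or bounds kept their direction and call in each of the 28 alternatives that tested them. These 40 were picked for their size in the main fit on the same arrays, so their stability was largely set by that choice. Of the 191 genes named by the rules, 29 lost their call or turned in at least 1 alternative. Scaled to array medians, 3269 genes were called (1220 higher and 2049 lower), 1341 in D2, 2197 in B6, 31 for the strain interaction and 2036 against Ter119+ cells. With 75th percentile scaling, 2206 were called in D2, 53 for the interaction and 2831 against Ter119+ cells. Over genes detected on all 12 arrays, where fewer genes were tested, the counts were 3123 (1273 higher and 1850 lower), 2662 in D2, 2598 in B6, 15 and 2667. A threshold of 2-fold left 2877 genes (1339 higher and 1538 lower). Array weights gave 369 interaction calls, and leaving out D2 progenitor replicates 1 and 3, an alternative chosen after seeing the data, gave 90. Leaving out each array in turn gave 5226 to 5401 calls (2240 to 2330 higher and 2964 to 3078 lower), 4129 to 4479 in D2, 4040 to 4571 in B6, 125 to 163 for the interaction and 4364 to 4738 against Ter119+ cells. The median of the growth factor receptors turned to -1.09 and that of the nuclear envelope list to -0.10 over genes detected on all 12 arrays, and Rpl23 to -0.39 with the mean of its probes. The 2 list medians ran over fewer members there, 4 in place of 10 growth factor receptors and 11 in place of 14 nuclear envelope genes. Apart from the differences of probes and members, the cause of these changes was not tested. Groups share replicate numbers, and same-numbered Gr1+ and progenitor arrays correlated in their deviations with r from 0.0862 to 0.356 in D2 and from -0.0972 to 0.169 in B6. Arrays with different numbers gave r from -0.413 to 0.198 in D2 and from -0.228 to 0.108 in B6. Whether same-numbered arrays share a source was not tested, and they were not taken as pairs. With the replicate number as a block 5473 genes were called, 4561 in D2, 4568 in B6, 163 for the interaction and 4726 against Ter119+ cells. Genes near background are limited by signal: 4245 of the tested genes were detected on all 12 arrays with the probe used, and 4257 where the probe was chosen after that filter.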
